A study of Mus musculus with 4 samples.

Results

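The 2'-5' oligoadenylate synthetase (OAS) genes Oasl1, Oasl2, Oas1a, Oas1g, Oas2 and Oas3 were compared between mouse macrophages that lacked the phosphatase subunit PP2ACα and macrophages that kept it. These 6 genes were fixed by name, and each was read from the array feature annotated with that gene alone, taking the brightest where there were several. Of the 6, 5 had such a feature. Oas1a had none, because its feature is annotated with Oas1g as well, so Oas1a has no value of its own. The 5 measured genes are part of 22180 genes with a feature of their own, and all 5 lay above the filter on dim genes that left 12542 genes for testing.

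OAS enzymes are antiviral proteins that interferon induces. On binding double-stranded RNA they join ATP into 2'-5'-linked oligoadenylates (2-5A), a signal that leads to the cleavage of viral and cellular RNA. In macrophages, lipopolysaccharide (LPS) from the outer membrane of Gram-negative bacteria is detected by Toll-like receptor 4, one arm of which induces interferon beta; secreted interferon then acts back on the cells through the factor ISGF3, which includes STAT2 and IRF9 and binds interferon-stimulated response elements in promoters.

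The knockout macrophages were of the genotype PP2ACα fl/fl;lyM-Cre, in which a myeloid Cre deletes exon 1 of PP2ACα (gene Ppp2ca, a catalytic subunit of the phosphatase PP2A). The control macrophages were of the genotype PP2ACα fl/fl, with the same floxed alleles and no Cre, so that carrying Cre and losing the phosphatase cannot be told apart in this design. Cells of both genotypes were grown from bone marrow with L-cell supernatant for 6 days and then received 100 ng/ml LPS for 2 hours, and no unstimulated cells were analysed here. Each genotype had 2 arrays that the labels call biological replicates; the labels do not say whether they came from separate mice or give an age, and p-values measure only the spread between these arrays. Values are log2 expression units from robust multi-array averaging (RMA), in which 1 unit is a 2-fold difference, and the number of arrays limits their precision.

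Ppp2ca read 4.36 and 3.39 log2 units on the knockout arrays, against 8.25 and 7.59 on the control arrays (limma, difference -4.04, adjusted p = 0.00759). The call was lost without control replicate 1 (limma adjusted p = 0.0503), with all features as units (0.0753) and without pooling of variance (0.217), and the mean of the gene's features gave a smaller difference of -2.14 (limma adjusted p = 0.00572). The array medians spanned 3.50 to 3.57, and Pearson's r across features was 0.986 to 0.990 for the pairs of arrays. The macrophage label was checked on 6 marker genes (Adgre1, Csf1r, Cd68, Mertk, Cd14, Itgam), and none passed the test. Their mean level was 10.91 and 10.92 log2 units on the knockout arrays and 10.91 and 10.79 on the control arrays. Both knockout arrays lay above both control arrays for Adgre1 (difference 0.32, limma adjusted p = 0.0885) and Mertk (0.13), as for 28.8% of tested genes. Both lay below for Itgam (-0.07). Over the 12542 tested genes, 852 (6.79%) passed the limma test at an adjusted p of 0.05; 3.30% were higher in knockout and 3.49% were lower. Leaving out knockout replicate 1 or 2 gave 96 or 101 called genes, and leaving out control replicate 1 or 2 gave 174 or 164.

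RefSeq places all OAS genes on mouse chromosome 5, in 2 runs without another protein-coding gene in between: Oasl2 beside Oasl1, and a second run of 10 genes in the order Oas2, Oas3, Oas1e, Oas1c, Oas1b, Oas1f, Oas1h, Oas1g, Oas1a and Oas1d. Promoter windows of 300 bases, from 250 before to 50 after the start site, were read from RefSeq for 5 of the 6 genes; Oas2 is named only. They were searched on both strands for the core of the interferon-stimulated response element (GAAA, any 2 bases, GAAA) and for the shorter core AANNGAAA, which interferon regulatory factors bind, which every match of the longer core contains and which was chosen after the sequences were seen. Of all 32851 promoter windows in the table, 3.44% hold the longer core and 23.9% the shorter one. The windows of the 4 measured genes that have one, and of Oas1c, a further family gene that rose, are shown for their matches, which are in capitals and run 5' to 3' on the strand of the gene.
Oasl1, GRCm38.p6, chr5:114922990-114923289, plus strand: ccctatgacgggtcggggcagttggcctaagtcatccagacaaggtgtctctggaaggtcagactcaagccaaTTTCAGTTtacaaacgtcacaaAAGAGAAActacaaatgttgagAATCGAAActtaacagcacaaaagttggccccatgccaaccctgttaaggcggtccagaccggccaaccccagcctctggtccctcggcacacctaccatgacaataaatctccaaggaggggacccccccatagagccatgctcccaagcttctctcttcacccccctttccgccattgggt
Oasl2, GRCm38.p6, chr5:114896684-114896983, plus strand: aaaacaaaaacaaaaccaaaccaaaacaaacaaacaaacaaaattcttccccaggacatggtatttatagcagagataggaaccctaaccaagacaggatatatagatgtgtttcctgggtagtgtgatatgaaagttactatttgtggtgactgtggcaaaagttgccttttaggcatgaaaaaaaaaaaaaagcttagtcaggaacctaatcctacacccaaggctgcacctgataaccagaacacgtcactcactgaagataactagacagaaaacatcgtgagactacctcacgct
Oas1g, GRCm38.p6, chr5:120887564-120887863, minus strand: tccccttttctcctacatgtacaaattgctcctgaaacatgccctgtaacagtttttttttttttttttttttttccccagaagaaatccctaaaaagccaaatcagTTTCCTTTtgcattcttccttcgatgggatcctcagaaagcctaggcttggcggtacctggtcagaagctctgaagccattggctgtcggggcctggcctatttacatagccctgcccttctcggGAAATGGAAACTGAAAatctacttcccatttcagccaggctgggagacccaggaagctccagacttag
Oas3, GRCm38.p6, chr5:120777610-120777909, minus strand: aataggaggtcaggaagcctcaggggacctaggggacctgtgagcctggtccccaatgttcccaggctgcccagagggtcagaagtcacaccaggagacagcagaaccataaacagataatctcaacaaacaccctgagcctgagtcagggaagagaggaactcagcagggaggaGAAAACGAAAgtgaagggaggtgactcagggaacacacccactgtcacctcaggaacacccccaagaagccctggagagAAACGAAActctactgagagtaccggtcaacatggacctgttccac
Oas1c, GRCm38.p6, chr5:120812465-120812764, minus strand: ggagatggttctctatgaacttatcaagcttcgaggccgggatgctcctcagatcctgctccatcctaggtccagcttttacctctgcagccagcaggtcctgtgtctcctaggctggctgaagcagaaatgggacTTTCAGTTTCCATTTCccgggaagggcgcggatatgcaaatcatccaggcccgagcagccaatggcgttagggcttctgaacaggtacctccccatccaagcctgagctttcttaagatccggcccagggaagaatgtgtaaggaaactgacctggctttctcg

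The longer core was found in 3 of the 5 windows of the named genes, and the shorter one in 4. Oas1g and Oas1a each hold 2 overlapping matches of the longer core. These begin at -18 and -12 relative to the start site in Oas1g and at -20 and -14 in Oas1a. Oas1g also holds a match of the shorter core on the opposite strand, beginning at -143. Oas3 holds 1 match of the longer core, beginning at -75, and a further match of the shorter core that begins at 5 bases after the start. Oasl1 holds no match of the longer core and 3 of the shorter one, at -177, -155 and -133. Oasl2 holds neither. Oas1c holds 2 overlapping matches of the longer core on the opposite strand, at -114 and -108. Oas1f and Oas1h, whose levels lay below the filter, hold 1 match each of the shorter core and none of the longer one. A match is a run of letters and not a measured binding site.

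All 5 measured OAS genes were higher in knockout macrophages, by 1.14 to 2.82 log2 units, or 2.21-fold to 7.09-fold. All 5 passed the test and none was lower, against 3.30% of all tested genes called higher. Their median difference was 1.55 log2 units, against 0.01 over all tested genes. In all 5, both knockout arrays lay above both control arrays, as they did for 28.8% of tested genes.

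**Figure D1:**
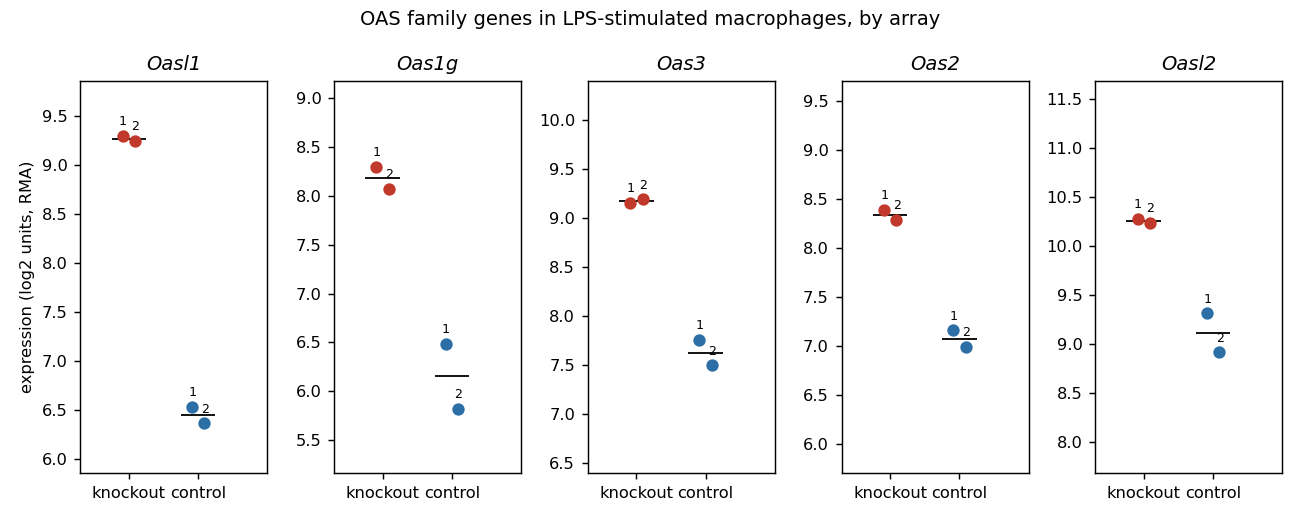
Expression (log2 units, RMA) of the 5 measured OAS genes on each array, knockout on the left and control on the right of each panel; points are arrays with their replicate number, lines are means, and every panel spans 4 log2 units. In each panel both knockout points lie above both control points, and the control points lie further apart than the knockout points.

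Oasl1 encodes an OAS-like protein with a ubiquitin-like tail that makes no 2-5A, and in the mouse it is known as an inhibitor of Irf7 translation. It read 9.29 and 9.24 log2 units on the knockout arrays, against 6.52 and 6.36 on the control arrays. The lowest knockout array lay 2.72 log2 units above the highest control array, and arrays of 1 genotype were at most 0.16 apart. The difference of 2.82 log2 units (95% interval 2.58 to 3.07, SE 0.10, limma adjusted p = 0.00102) was the largest rise of all 12542 tested genes.

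Oasl2, its neighbour, encodes an OAS-like protein that also has a ubiquitin-like tail and, in the mouse, makes 2-5A. It read 10.28 and 10.24 log2 units on the knockout arrays and 9.32 and 8.92 on the control arrays. The genotypes did not overlap, and the control arrays were 0.40 apart, against 0.04 for the knockout arrays. The difference was 1.14 log2 units (95% interval 0.78 to 1.51, limma adjusted p = 0.0169), the smallest of the 5. The intervals of the neighbours Oasl1 and Oasl2 did not overlap; the difference between their changes was not tested.

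Oas1g encodes a small OAS enzyme of the Oas1 group, which has many copies in the mouse. It read 8.29 and 8.07 log2 units on the knockout arrays and 6.49 and 5.83 on the control arrays. Its control arrays were the furthest apart of the 5 genes, by 0.66, and the lowest knockout array still lay 1.58 above the highest control array. The difference was 2.03 log2 units (95% interval 1.46 to 2.59, SE 0.23, limma adjusted p = 0.0124) and ranked 8 among all tested genes. Probes of close copies in the Oas1 group may read each other's transcripts; probe sequences were not used here.

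Oas2 and Oas3 encode the larger enzymes, built from repeats of the OAS core, and stand side by side on the chromosome. Oas3 read 9.16 and 9.19 log2 units on the knockout arrays and 7.75 and 7.50 on the control arrays. Oas2 read 8.39 and 8.29 log2 units on the knockout arrays and 7.16 and 6.99 on the control arrays. Neither gene had overlapping genotypes, and the gap between the lowest knockout and the highest control array was 1.40 for Oas3 and 1.13 for Oas2. Oas3 differed by 1.55 log2 units (95% interval 1.26 to 1.83, limma adjusted p = 0.00535) and Oas2 by 1.26 (1.00 to 1.52, limma adjusted p = 0.00646). Their intervals overlapped.

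The calls of Oasl1, Oas2 and Oas3 held without any 1 array. Oasl2 and Oas1g passed without either control array but not without either knockout array. Without a control array, a gene's own spread comes from the knockout pair alone, which was the closer pair for all 5 genes. Passing there is therefore no measure of stability against the control arrays. With each gene's variance taken alone, none of the 5 passed (limma's linear model, adjusted p = 0.14 to 0.234; all 5 had an unadjusted p under 0.05), and with all 20673 features above the filter tested as units, Oasl1 passed and the other 4 did not (adjusted p = 0.0652 to 0.105).

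**Figure D2:**
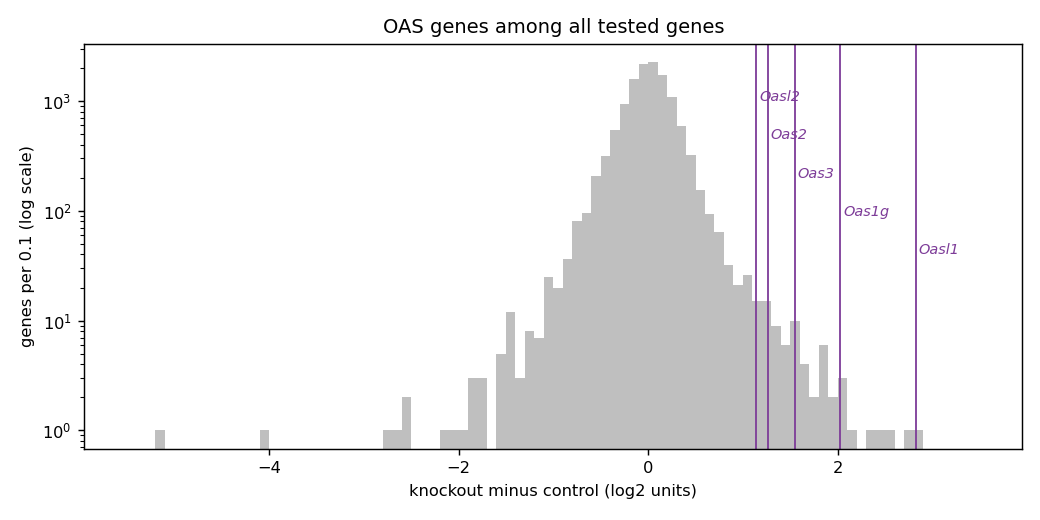
Histogram of the knockout minus control difference (log2 units) over the 12542 tested genes, with the number of genes per bin of 0.1 on a log axis; vertical lines mark the 5 measured OAS genes. The lines lie between 1.14 and 2.82, to the right of the bulk around 0, and that of Oasl1 is at the right end of the histogram.

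The 5 genes also shared how the arrays of 1 genotype differed. Control replicate 1 read above control replicate 2 for all 5, by 0.16 to 0.66 log2 units and a median of 0.26. Over all tested genes, 49.6% were higher on that array and the median was -0.00156. The order was not particular to these 5. Zbp1 (0.43), Irf7 (0.26) and Tlr3 (0.26), which also rose in knockout, shared it. Ifih1 (-0.25), Ccr2 (-0.17) and Oas1c (-0.07), which rose too, read higher on control replicate 2. Between the knockout arrays the 5 genes differed by at most 0.23, and the median of replicate 1 minus replicate 2 was 0.05. The SD between arrays ran from 0.02 to 0.16 in knockout and from 0.12 to 0.47 in control.

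The likeness of other genes to the 5 was measured as the root mean square distance between a gene's values, centred on its own mean over the 4 arrays, and the mean centred profile of the 5 OAS genes. Since 4 arrays of 2 genotypes give each profile, likeness mostly measures the size of the genotype difference, and it is given as a description with no test. The nearest were Ifi209 (distance 0.0407 log2 units, knockout minus control 1.82), Rtp4 (0.0887, 1.70), H2-T24 (0.0911, 1.72), Ifit1 (0.0915, 1.58) and Ifi203-ps (0.0935, 1.60). Ifit1 encodes an interferon-induced protein that binds viral RNA, and H2-T24 belongs to the non-classical major histocompatibility genes. Among the OAS genes Oas3 lay nearest to their mean, at 0.116, and Oasl1 the furthest, at 0.536, with 8 and 173 other named genes nearer than they were.

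**Figure D3:**
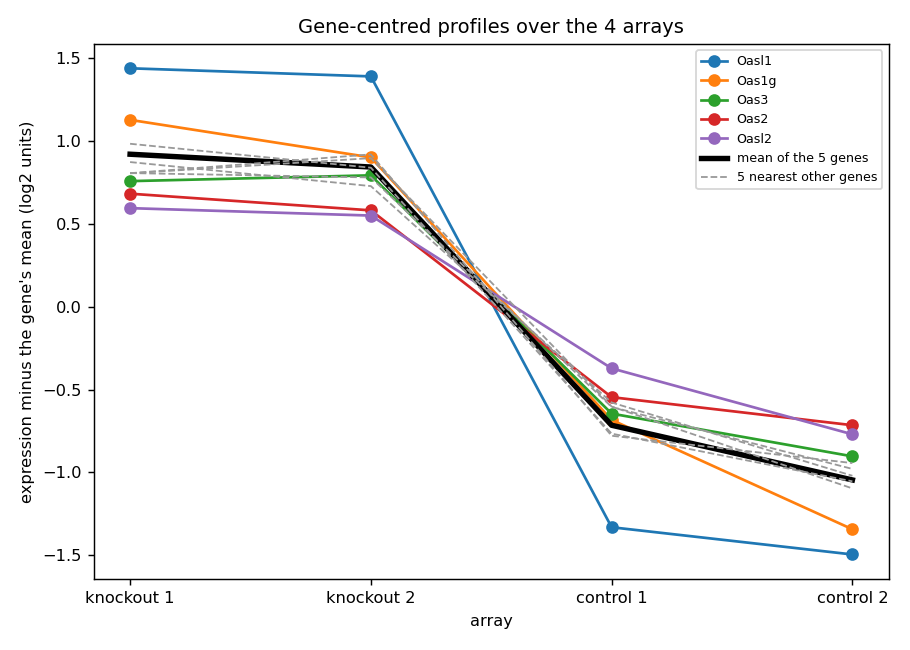
Expression minus each gene's own mean (log2 units) on the 2 knockout and 2 control arrays, for the 5 measured OAS genes (coloured), their mean (black) and the 5 other genes nearest to that mean (dashed grey). Oasl1 spans the widest range, Oasl2 and Oas2 the narrowest, and every coloured line is lower on control replicate 2 than on control replicate 1.

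The family has 6 further genes in the same run, Oas1b, Oas1c, Oas1d, Oas1e, Oas1f and Oas1h, of which 2 reached the filter level of 3.53 log2 units and both rose in knockout. Oas1b, the flavivirus resistance gene, which RefSeq lists as a transcribed pseudogene in the reference strain, read 5.67 and 5.68 on the knockout arrays and 4.53 and 4.36 on the control arrays. It differed by 1.23 (95% interval 0.99 to 1.47, limma adjusted p = 0.00601). Oas1c read 5.55 and 5.12 on the knockout arrays and 4.34 and 4.40 on the control arrays, a difference of 0.96 (95% interval 0.58 to 1.35, limma adjusted p = 0.0307). Control levels of both genes were low, with means of 4.45 for Oas1b and 4.37 for Oas1c. Differences at low levels may be understated, which was not measured here. A count of genes that passed a filter on level is no measure of the family: Oas1d and Oas1e, known from the ovary, and Oas1f and Oas1h had means of 2.27 to 3.08 on the knockout arrays and 2.39 to 3.04 on the control arrays, below the filter, and differed by -0.12 to 0.10. Oas1b passed without any 1 array; Oas1c passed without knockout replicate 2 but not without control replicate 1 (limma adjusted p = 0.12), control replicate 2 (0.101) or knockout replicate 1 (0.0936).

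The protein-coding genes next to the 2 runs, 3 on each side, were read for comparison. Of these 12 genes, 11 had a feature of their own, 10 were tested and none was called (limma), and none had an unadjusted p under 0.05. Beside Oasl2 and Oasl1, Ankrd13a differed by -0.20, 2610524H06Rik by 0.09, 2210016L21Rik by -0.07 and the intramembrane protease gene Sppl3 by 0.00331. Beside the other run, Cfap73 differed by -0.02, Rasal1 by 0.04, Dtx1, a Notch pathway ubiquitin ligase gene, by 0.19, Rph3a by -0.21, the phosphatase gene Ptpn11 by -0.01 and the ribosomal protein gene Rpl6 by -0.26. The limma 95% intervals of these 10 reached at most 0.50 at their upper end, below the lower end of every interval of the 5 OAS genes, 0.78. The features read for Cfap73, Rasal1, Dtx1, Rph3a and Rpl6 were dim, with means under 5 log2 units in both genotypes, where differences may be understated. Whether a dim feature reports its gene's transcript was not tested, so these 5 are weak evidence of unchanged neighbours. With 2 arrays per genotype, a missing call does not show that the other tested neighbours were unchanged either. Both knockout arrays lay below both control arrays for Ankrd13a (95% interval -0.41 to 0.01), 2210016L21Rik and Rph3a, and above them for Dtx1.

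**Figure D4:**
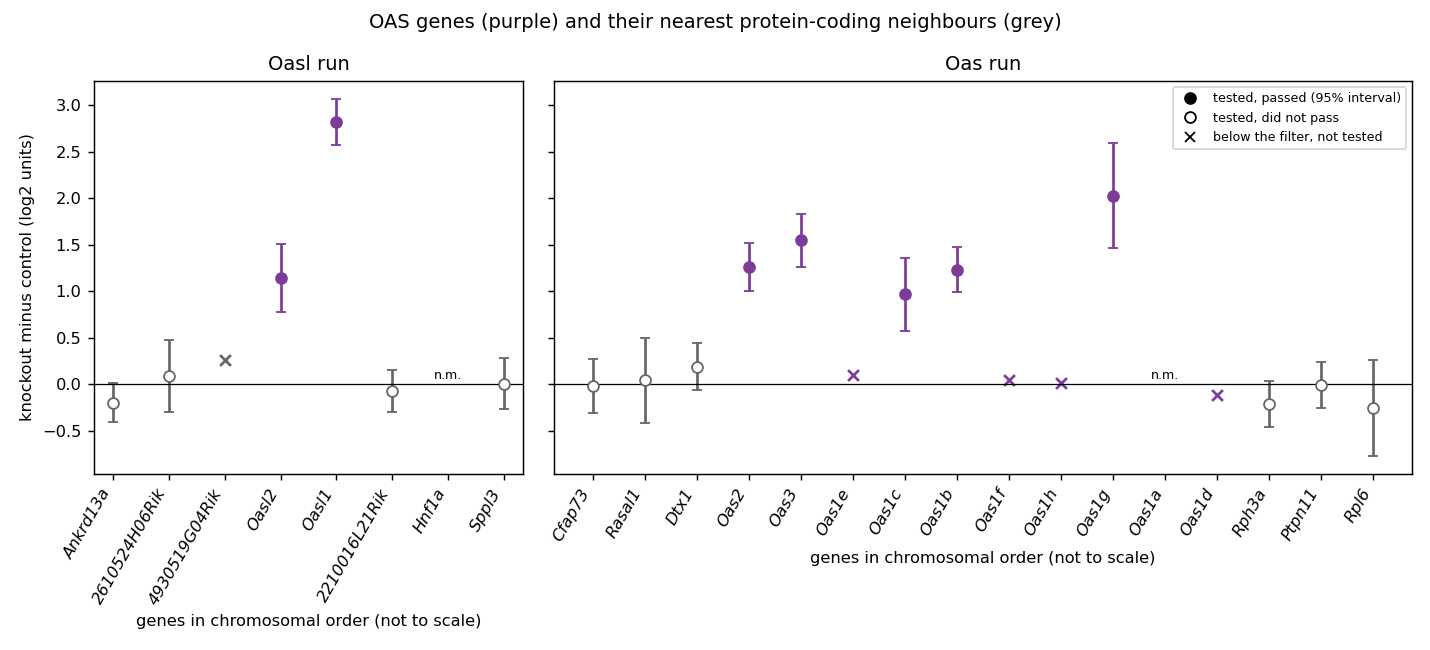
Knockout minus control difference (log2 units) of the OAS genes (purple) and of 3 protein-coding neighbours on each side (grey), in the order of the genes along chromosome 5 and not to scale; bars are limma 95% intervals, filled points passed, open points did not, crosses were below the filter, and n.m. marks genes with no feature of their own. Oasl1, Oasl2, Oas2, Oas3, Oas1c, Oas1b and Oas1g lie between 0.96 and 2.82, whereas the tested neighbours lie between -0.26 and 0.19.

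Genes that act on or beside 2-5A were read from lists, given here as counts beside the 6.79% of tested genes called. Of all tested genes, 3.30% were called higher and 3.49% lower. None of the 3 measured genes of 2-5A turnover and of control over the pathway passed. Pde12, whose product degrades 2-5A, read 7.27 and 7.65 log2 units on the knockout arrays and 7.10 and 7.29 on the control arrays, which overlapped (difference 0.27, limma adjusted p = 0.34). Akap7, which in the mouse also encodes a 2-5A-degrading enzyme, differed by 0.36 (limma adjusted p = 0.105). Abce1, known for ribosome recycling, read 10.27 and 10.23 on the knockout arrays and 10.56 and 10.58 on the control arrays, a difference of -0.31 (limma adjusted p = 0.0941). The Akap7 and Abce1 arrays did not overlap between genotypes. Both knockout arrays lay above both control arrays for Akap7, as for 28.8% of tested genes, and below them for Abce1. Both genes had an unadjusted limma p under 0.05 (0.0147 for Akap7 and 0.0121 for Abce1), as did 3099 of the 12542 tested genes.

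Other genes that detect or answer double-stranded RNA were higher too. The median difference over the 9 measured genes was 0.83 log2 units. Of these genes, 7 rose and none fell, against 3.30% of all tested genes called higher. They were Zbp1, a sensor of Z-form nucleic acid (difference 1.93), the RIG-I-like receptor genes Dhx58 (1.21), Ifih1 (1.08) and Ddx58 (0.83), the endosomal receptor gene Tlr3 (0.88), the RNA-editing enzyme gene Adar (0.79) and Eif2ak2 (0.73), which encodes the kinase PKR that halts translation on binding double-stranded RNA (limma adjusted p = 0.00535 to 0.0191 for the 7). The adaptor gene Mavs, at 0.24, and Zc3hav1, at 0.37, did not pass. The number that rose was 5 without control replicate 1, 3 without control replicate 2, and 2 without either knockout replicate.

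Among the genes that lead from interferon beta to ISGF3, 3 of 7 measured rose and none fell, with a median difference of 0.23 log2 units. Over all tested genes, 3.30% were called higher. Ifnb1, which encodes interferon beta, read 8.45 and 8.42 log2 units on the knockout arrays and 7.35 and 6.99 on the control arrays. That is a difference of 1.26 (95% interval 0.92 to 1.61, limma adjusted p = 0.0118), and, as for the OAS genes, control replicate 1 was the higher control array. Stat2 differed by 0.86 and Irf9 by 0.51 (limma adjusted p = 0.0146 and 0.0359), whereas the receptor genes Ifnar1 and Ifnar2 and the kinase genes Jak1 and Tyk2 differed by -0.08 to 0.23 and did not pass. The number that rose was 2 without control replicate 1, 1 without control replicate 2 and 0 without either knockout replicate.

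Of 4 measured interferon regulatory factor genes, Irf7 alone passed, and none fell. Irf7, the factor that amplifies interferon production and whose translation Oasl1 is known to inhibit, read 10.54 and 10.41 log2 units on the knockout arrays and 8.41 and 8.15 on the control arrays. Its difference was 2.19 (95% interval 1.89 to 2.50, limma adjusted p = 0.00293), a measure of its RNA only. Irf1 differed by -0.39 (limma adjusted p = 0.0571), Irf3 by 0.22 and Irf8 by 0.15.

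**Figure D5:**
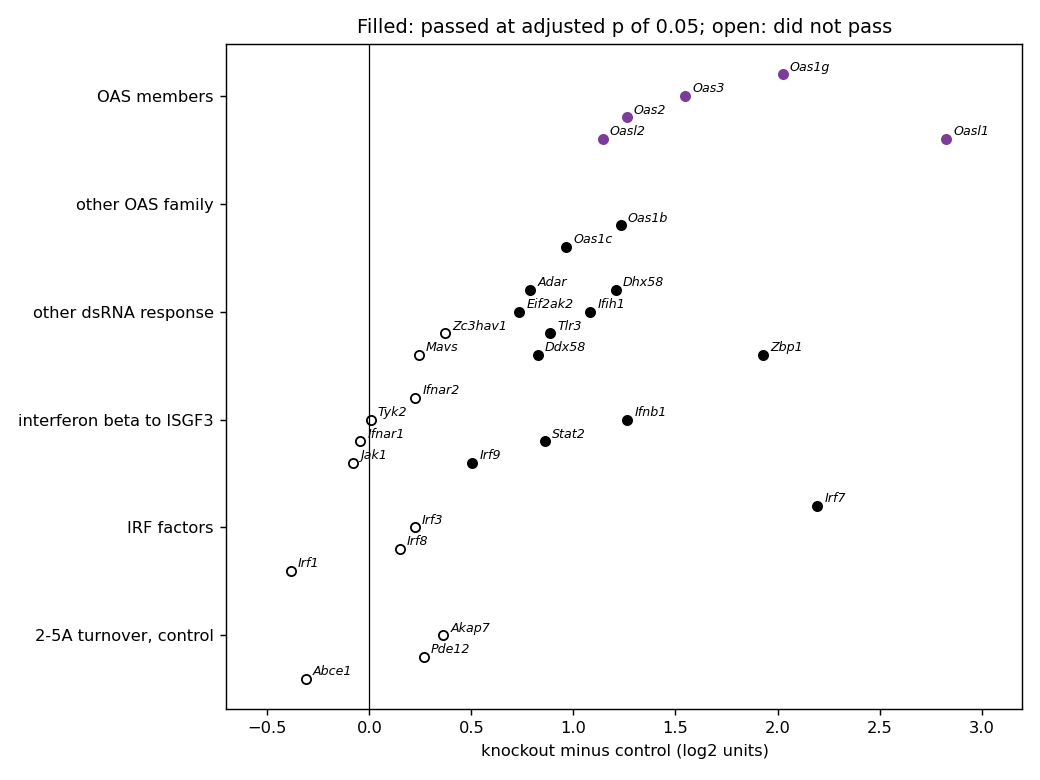
Knockout minus control difference (log2 units) of each tested gene, by list; filled points passed at a limma adjusted p of 0.05 and open points did not, and the 5 measured OAS genes are in purple. The filled points of the double-stranded RNA list lie between 0.73 and 1.93. The 3 genes of the 2-5A turnover and control list lie between -0.31 and 0.36, all open.

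Markers of other cell types were set beside these values, and beside the 3.30% of all tested genes called higher and 3.49% called lower. Of 5 measured monocyte markers, Ms4a4c (1.50), Ccr2 (0.83) and Ly6c2 (0.76) rose, F13a1 fell by 0.79 and Cx3cr1, at 0.43, did not pass; their mean level was 7.41 and 7.46 log2 units on the knockout arrays and 6.86 and 6.92 on the control arrays. Ms4a4c was the lone marker of these 5 whose call held without any 1 array. Their part in the OAS result was not tested, and in bulk RNA more of a cell type and more RNA per cell cannot be told apart. Of 5 markers of plasmacytoid dendritic cells, which make much interferon, none passed; Siglech, Ccr9 and Klk1 lay below the filter, and the list's mean level was 3.69 and 3.52 on the knockout arrays against 3.68 and 3.49 on the control arrays. No marker of neutrophils (4 tested), conventional dendritic cells (2), T and NK cells (2), fibroblasts (2) or mast cells and basophils (1) passed, and no B cell marker reached the filter.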

How the data were processed

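RNA of LPS-stimulated macrophages was labelled as biotinylated cDNA from 400 ng of total RNA, per the labels' protocols. The authors deposited log2 values that the series' design text says were made by RMA, with background adjustment and normalization; the submitters' processing notes name oligo and RMA, and versions and a genome build are not given in the sources used here. All 4 columns were matched to samples. Such normalization removes a change in total RNA per cell.

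Of 41345 features, 23521 carried a single gene symbol and 1814 more than one; the 16010 features without annotation were not named. The gene IDs of 23328 matched RefSeq (GRCm38.p6), which changed 0 symbols. Each gene was read from its feature with the highest mean, and genes whose mean reached the median over features, 3.53 log2 units, were tested. The model of limma 3.58.1 (R 4.3.3; lmFit, then eBayes with no block) compared knockout with control, two-sided, on 2 residual and 3.51 prior degrees of freedom. P-values were adjusted by Benjamini-Hochberg over all 12542 tested genes. A gene is said to rise or fall, or is called, where its adjusted p was under 0.05. The code was tested on simulated data.

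The OAS genes, lists, markers and naming rule were chosen with earlier results of these data known. The rule named the 6 OAS genes, called list members, Ifnb1, Irf7, Ppp2ca and Ppp2cb (difference -0.04, limma adjusted p = 0.828), tested flanking genes and the 5 nearest profiles among genes with established symbols; other list members and markers were named after their values were seen, and some items of the rule are not reported here. Protein sequences were not used. The alternatives changed the filter, scaling, features, variance model, weights, arrays and block.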

Additional observations from a re-analysis of the deposited data

Results flagged for a closer look

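A feature of these genes outside the comparisons read higher in knockout and was not called. It is annotated with both Oas1a and Oas1g and so was assigned to neither. It read 6.48 and 6.50 log2 units on the knockout arrays and 5.88 and 5.40 on the control arrays, with no overlap. Its difference was 0.85 (SE 0.19). In limma over 20673 features above the filter its adjusted p was 0.16 (unadjusted p = 0.00978). In that fit 15 features were called and 3641 had an unadjusted p under 0.05. The feature assigned to Oas1g alone differed by 2.03 and was not called in that fit either, although it was called in the fit by gene.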

How the results depend on the processing

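The 5 measured OAS genes were higher in knockout under every one of the 16 alternatives, and none was called lower; Oas1a has no value under any. All 5 were called under both filters, median centring, quantile normalization, averaging of a gene's features, limma-trend, robust empirical Bayes, array weights, the replicate block, the 1.5-fold cutoff and without either control array. With all features as units, 1 OAS gene was called, and Oasl2 at 1.14, Oas1g at 2.03, Oas2 at 1.26 and Oas3 at 1.55 were not (limma, 15 of 20673 features called, 3641 at an unadjusted p under 0.05); the 4 lists with called genes then had 0. Without pooling of variance limma called 0 genes (2295 at an unadjusted p under 0.05) and so 0 OAS genes and 0 in each list, with the same differences and 2.82 for Oasl1. The number of genes called was 852 as reported, 333 with no filter, 1475 with the stricter filter and 1584 with limma-trend. Of Oas1b and Oas1c, 1 was called with no filter and with the replicate block. The stricter filter removed Oas1c from testing, and Oas1b was called. With the stricter filter and limma-trend, Abce1 of the 2-5A turnover and control list and 1 interferon regulatory factor gene (Irf1) were called lower. With median centring, 1 was called lower (Irf1). With median centring the uncalled Sppl3 and Rasal1 turned to -0.038 and -0.0026.

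Leaving out each array in turn gave 96 to 174 genes called, 3 to 5 OAS genes, 1 to 2 of Oas1b and Oas1c, 0 to 2 genes from interferon beta to ISGF3 and 2 to 5 of the double-stranded RNA list. The differences ran from 0.94 to 1.34 for Oasl2 and from 1.70 to 2.36 for Oas1g. Uncalled flanking genes changed sign, with -0.10 to 0.11 for Sppl3, -0.20 to 0.27 for Rasal1, -0.13 to 0.30 for 2610524H06Rik, -0.15 to 0.11 for Cfap73, -0.088 to 0.066 for Ptpn11 and -0.56 to 0.051 for Rpl6. A fit that leaves 1 array in a genotype assumes that it varies like the other genotype's arrays. The replicate numbers come from the labels alone, and whether same-numbered arrays were prepared together is not known here. Those arrays deviated from their group means with r = -0.04 across tested genes, which cannot settle it. The replicate block gave 312 called genes and the same 5 OAS genes (adjusted p = 0.00963 for Oasl1 to 0.0352 for Oasl2, limma). The causes of these changes were not tested. The protein comparison was not run.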
